A study of Homo sapiens with 4 samples.

Results

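Focal adhesion adaptors are the cytoplasmic proteins that tie integrins to actin. The 10 genes described here are TLN1, VCL, ZYX, PXN, ILK, TNS1, TNS3, PTK2, BCAR1 and PARVA, chosen by name for their known role. Their positions were every cytidine that the deposited tables annotate to one of these gene names, which gave 60 positions of 18336 pairs of position and gene in all. Of the 10 genes 9 had a listed position, and PTK2, which encodes focal adhesion kinase, had none in either table.

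The cells were LX-2, an established human hepatic stellate cell line labelled as wild type. Untreated cells (control, 2 libraries) were set against cells given human recombinant TGF-β1 at 5 ng/ml for 24 h (2 libraries), each described as a biological replicate. Sodium borohydride (NaBH4) sequencing of polyadenylated RNA reads N4-acetylcytidine (ac4C) as a mismatch of C, because the reduced base is misread in reverse transcription, and the study asked how ac4C differs after TGF-β1. The authors deposited 1 table per group, so each position has 1 value per group, with no value per library, no read count and no replicate error.

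Focal adhesions form where integrins bind the matrix. Talin opens the integrin and binds actin, vinculin reinforces that link under tension, and the complex of ILK with parvin and a PINCH protein forms a further bridge to actin. Paxillin, focal adhesion kinase and p130Cas pass signals from these sites, and in stellate cells such contacts carry the pull of the contractile myofibroblast on collagen.

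A listed position is a C whose mismatch difference, the authors' fraction given here in percent, carried an authors' p-value below 0.05; no listed value was below 1%. The subtraction behind the mismatch difference is not described. No library is labelled as made without NaBH4 or without the writer NAT10, so a listed position was not shown here to be ac4C. Differences between the groups have no replicate check, and no test is given. Positions below are on build hg38. The reading of the coordinates was checked: of 330 listed positions that fall in RefSeq promoter windows (GRCh38.p14), 330 had a C on the transcript strand at the printed base, and 59 had a C at the base before it in coordinate order.

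One of the adaptor positions lay in such a window, and its sequence is shown because it is the one place where the base and its neighbours could be read. It is the control position of PXN at chromosome 12 position 120265693 on the minus strand, 38 bases into the transcribed part of the window, in the 5'UTR. The listed C is in capitals and the sequence, from RefSeq on GRCh38.p14 (chr12:120265683-120265703, minus strand), reads 5′ to 3′.
PXN: agttgcggggCatagacgagc
This C is followed by A, whereas 59.4% of the 330 positions in windows were followed by G. The PXN position had a mismatch difference of 5.26% in control and was not listed after TGF-β1.

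Over the 10 genes together, 28 positions stood in the control table and 38 in that of TGF-β1 (ratio 1.36), beside 1.46 over all genes with each position counted for each of its genes. TLN1 carried that excess: its listed positions numbered 8 in control and 22 with TGF-β1, and without it the other genes had 20 and 16 (ratio 0.800). With the TGF-β1 list cut by lowest p to the length of the control list, the 10 genes had 28 and 22 (ratio 0.786). That cut makes the whole lists equal in length, so 0.786 is not to be set beside the 1.46 of all genes. In the uncut lists, 4 of the 9 listed adaptor genes had more positions with TGF-β1, beside 51.2% of all 6112 listed genes. Fewer were listed in 5, where 35.3% of all genes had fewer. The tables give neither depth nor transcript level, so a modified cytidine and a better covered one cannot be told apart here.

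**Figure D1:**
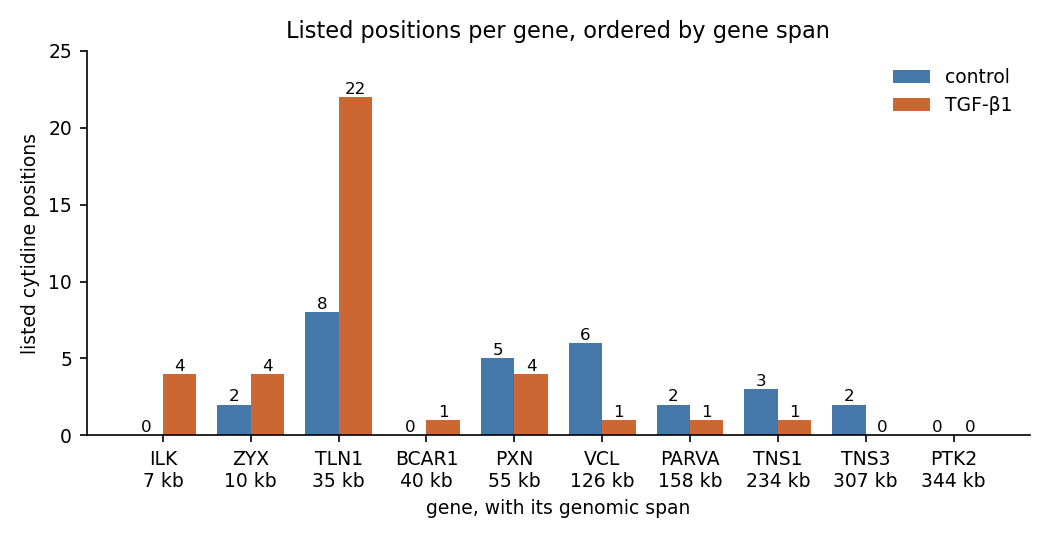
Bars give the number of listed cytidine positions (y axis) in control and after TGF-β1 for each of the 10 genes (x axis), ordered by genomic span. TLN1 stands highest with 8 and 22, the 4 genes of shortest span have more after TGF-β1, and the other listed genes have fewer.

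TLN1 (ENSG00000137076, chromosome 9 from 35696948 to 35732195, minus strand) encodes talin-1, the large protein that binds integrin tails and activates the receptor. Its gain of 14 positions was matched or passed by 15 of the 6112 listed genes, TLN1 included. All 22 positions after TGF-β1 were in coding sequence, as were 7 of the 8 in control, with the remaining one in the 3'UTR at position 35697760 (2.79%). Counted in 4 equal parts of the span from the 5′ end, control had 2, 3, 1 and 2 positions. TGF-β1 had 6, 4, 6 and 6. Within these parts the positions were not evenly placed. The span includes introns, and where the coding exons lie along it was not examined. The 6 TGF-β1 positions of the first part lay between 18.5% and 22.5% of the span, and the next one lay at 42.7%.

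The levels in TLN1 were low for the tables. In control they ran from 1.42% to 7.48% with a median of 2.17%, where the median of all control positions was 4.05%. After TGF-β1 they ran from 1.16% to 18.1% with a median of 3.53%, where that of all TGF-β1 positions was 4.68%. The highest position, 35724247 at 18.1%, was listed after TGF-β1 alone, and the authors' p-value of 2.27e-87 was the lowest above 0 among the adaptor positions. It was followed by position 35707469 at 13.6%, 35717148 at 8.52% and 35705653 at 8.21%, all of them in the TGF-β1 table only. In control the highest was position 35716415 at 7.48%.

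The authors' p-values in TLN1 also moved. They had a median of 0.0121 in control and of 2.31e-07 with TGF-β1, where the medians of all positions were 0.000346 and 1.05e-05. Among TLN1 positions between 2% and 5% the median was 0.0332 over 5 in control and 1.14e-09 over 13 after TGF-β1. All positions in that range had medians of 0.000537 and 3.64e-05, so p-values at like levels were lower after TGF-β1 in the whole tables as well. The part of read depth in the count of positions was not tested. At p under 0.001 in both tables TLN1 had 3 and 13 positions. These were 37.5% and 59.1% of its positions, beside 56.7% and 68.9% of all positions in control and with TGF-β1.

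Listed cytidines of TLN1 came close to each other at several places. Positions 35716412 (2.02% in control) and 35716415 lie 3 bases apart, as do 35707777 (3.73%) and 35707780 (1.66%) after TGF-β1. Position 35703886 was listed in control at 1.57%, and 3 bases away 35703889 was listed after TGF-β1 at 6.18%. Together with 35703827 (3.52%) and 35703862 (3.85%), both after TGF-β1 only, it formed a stretch of close positions. Position 35724247, the highest of the gene, lies 52 bases from 35724299, which both tables held. TLN1 also had the most positions of the adaptors, 27 in either table. Close pairs were listed in control in VCL (16 bases apart) and TNS1 (1 base apart) as well. How often listed positions lie this close over all genes was not counted.

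VCL (ENSG00000035403, chromosome 10 from 73995193 to 74121363, plus strand) encodes vinculin, which binds talin and actin, and its count went the other way. Its 6 control positions stood against a single one with TGF-β1, and 42 of the 6112 genes had 5 or more positions fewer. The control positions, all coding, were 74072758 at 2.30%, 74072774 at 3.10%, 74094452 at 20.4%, 74095724 at 5.19%, 74101090 at 12.2% and 74103926 at 8.84%. The single position after TGF-β1, 74083388 at 4.23%, was none of these. Thus the 2 tables shared no cytidine in VCL, and the values of 12.2% and 20.4%, the latter above 97.8% of all control positions, were in the control table only. The authors' p-values at those were 0.00724 and 0.0143. At p under 0.001 in both tables VCL had only 2 and 1 positions, and at a level of 5% or more it had 4 and 0.

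**Figure D2:**
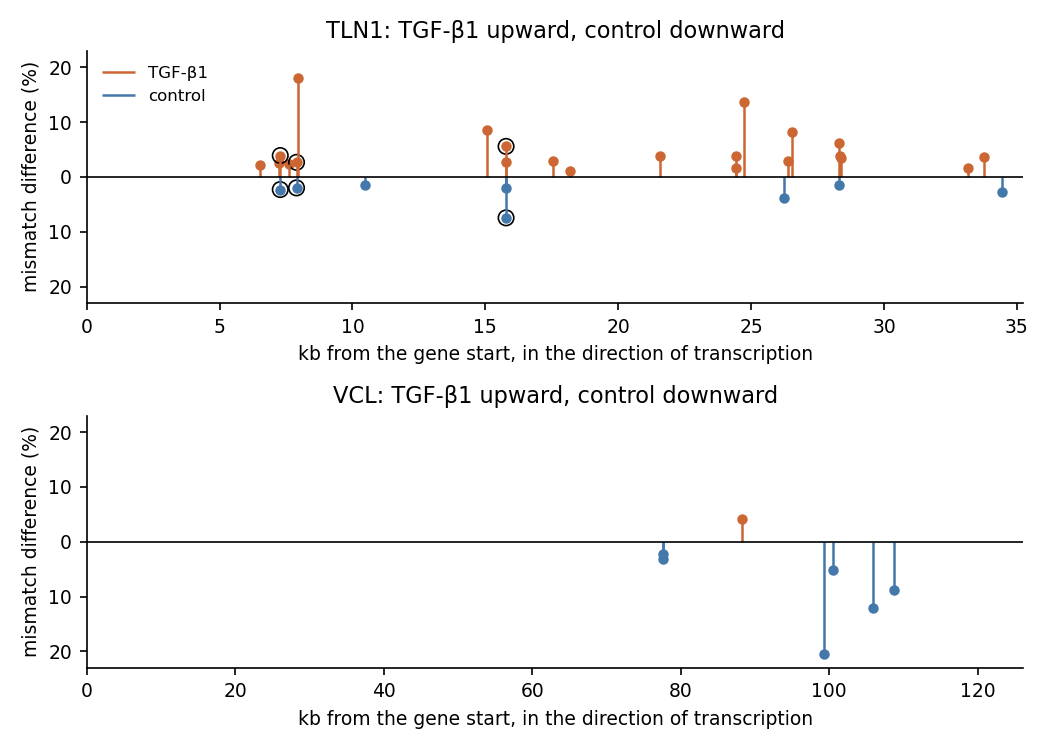
Lines show each listed position of TLN1 and VCL by its distance from the gene start in kb (x axis) and its mismatch difference in percent (y axis), TGF-β1 upward and control downward, with black rings on positions in both tables. TLN1 has 22 lines upward and 8 downward along the gene with 3 ringed pairs, and VCL has 1 upward and 6 downward with none.

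The bridge of ILK and parvin was divided. ILK (ENSG00000166333, chromosome 11 from 6603708 to 6610874, plus strand), a pseudokinase scaffold, had none in control and 4 with TGF-β1. It was one of the genes listed in the TGF-β1 table only, which were 28.3% of all, and 530 genes had a gain of 4 or more. The 4 positions of ILK lay at 6604288 in the 5'UTR (1.49%), at 6608890 (3.83%) and 6610229 (6.29%) in coding sequence and at 6610646 in the 3'UTR (8.37%). At p under 0.001 in both tables ILK had only 0 and 1 positions, and at a level of 5% or more it had 0 and 2. PARVA (ENSG00000197702, chromosome 11 from 12377563 to 12535356, plus strand), alpha-parvin, had 2 coding positions in control, 12377760 at 3.11% and 12473756 at 3.95%. The second recurred after TGF-β1 at 2.66% and was the only one listed there. A loss of 1 or more was found in 2155 of the 6112 listed genes.

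Of the LIM-domain adaptors, zyxin had more positions and paxillin about as many. ZYX (ENSG00000159840, chromosome 7 from 143381295 to 143391111, plus strand), which gathers actin regulators at adhesions under tension, had 2 positions in the control table and 4 in that of TGF-β1. In control both were in the 5'UTR, 143382595 at 2.96% and 143383150 at 2.22%. After TGF-β1 the first of these was at 3.27%, and the others were 143382288 in the 5'UTR (3.11%) and 143388601 (2.82%) and 143388828 (11.4%) in coding sequence. All coding positions of ZYX were thus in the TGF-β1 table. At 143382288 and 143388601 the authors' p-value was exactly 0, and without such positions ZYX had 2 and 2. A gain of 2 or more was found in 1567 of the 6112 listed genes.

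PXN (ENSG00000089159, chromosome 12 from 120210439 to 120265771, minus strand), the scaffold paxillin, had 5 positions in the control table and 4 in that of TGF-β1, with 1 in both. The control positions beside the one in the sequence above were 120213983 (3.21%, authors' p-value exactly 0) and 120215266 (1.26%) in coding sequence and 120223746 (2.62%) and 120224271 (4.18%) in the 5'UTR. After TGF-β1 they were 120210937 in the 3'UTR (2.37%), 120222604 in coding sequence (4.30%), 120223746 in the 5'UTR (3.65%) and 120265630. The last, at 42.6%, was the highest of all adaptor positions and above 99.5% of the TGF-β1 table, with an authors' p-value of 0.00231. It is annotated to a noncoding exon in 3 transcripts and lies 63 bases from the control position shown in the sequence, toward the 3′ end of the gene.

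The tensin genes TNS1 and TNS3, whose proteins link integrin tails to actin, each had 2 fewer positions after TGF-β1. A loss of 2 or more was found in 688 of the 6112 listed genes, these included. TNS1 (ENSG00000079308, chromosome 2 from 217799588 to 218033982, minus strand) had 3 in control, 217802980 in the 3'UTR at 15.6% and the neighbouring coding bases 217848897 at 25.8% and 217848898 at 4.49%. After TGF-β1 it had 1, at 217897915 in coding sequence, with 16.4%. Of the neighbouring bases, the one at 25.8% had an authors' p-value of 0.00380, and the one at 4.49% had a p-value of exactly 0. TNS3 (ENSG00000136205, chromosome 7 from 47275154 to 47582558, minus strand) had 2 positions in the 5'UTR in control, 47369347 at 8.22% and 47369584 at 9.08%, and 0 after TGF-β1. It was thus one of the genes in the control table only, which were 27.3% of all.

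The docking protein p130Cas, encoded by BCAR1 (ENSG00000050820, chromosome 16 from 75228181 to 75268053, minus strand), had none in control and 1 with TGF-β1, in coding sequence at 75233880 with 4.51%. A gain of 1 or more was found in 3127 of the 6112 listed genes. Focal adhesion kinase, the partner of p130Cas encoded by PTK2, was listed in neither table and so has no value here.

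**Figure D3:**
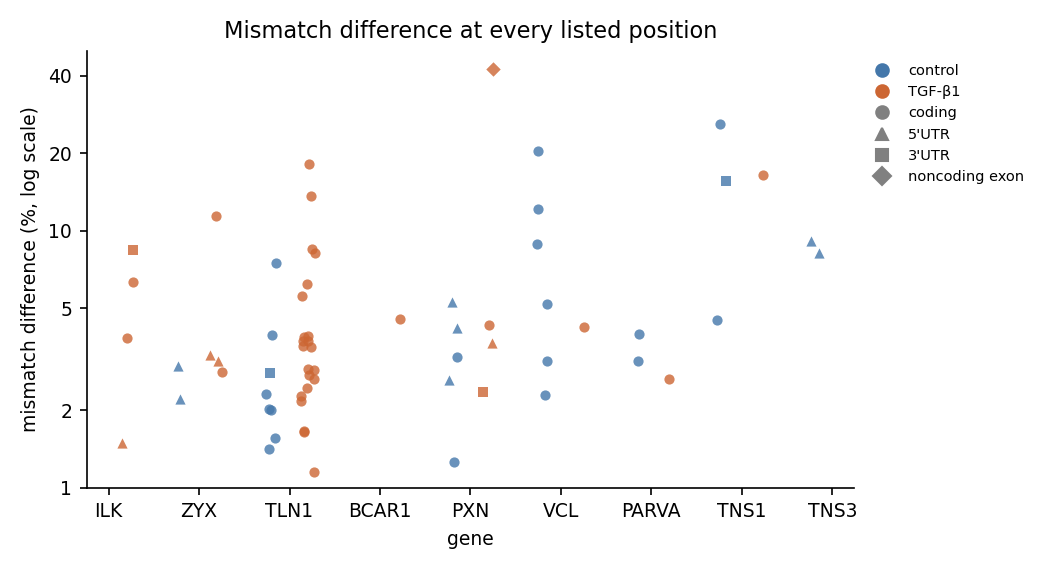
Points give the mismatch difference in percent (y axis, log scale) of every listed position of the 9 listed genes (x axis, ordered by span), with colour for the table and shape for the transcript segment. Most points lie under 5%, and the highest are PXN at 42.6% after TGF-β1 and TNS1 at 25.8% in control.

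Taken over the genes, the adaptor positions were of middling to low level. The median was 3.56% for control, beside 4.05% over all positions, and 3.68% for TGF-β1, beside 4.68%. A level of 10% or more was reached by 4 of 28 control positions, where 12.4% of all control positions reached it, and by 5 of 38 TGF-β1 positions, where 18.5% did. With TLN1 left out, 4 of 20 control positions (20%) and 3 of 16 TGF-β1 positions (18.75%) reached it. The authors' p-value was exactly 0 at 2 of the control positions, where 8.04% of all had such a value, and at 3 of the TGF-β1 positions, where 11% had. By segment, 19 control positions were coding, 7 lay in 5'UTRs and 2 in 3'UTRs. After TGF-β1 31 were coding, 4 lay in 5'UTRs, 2 in 3'UTRs and 1 in a noncoding exon. The 5'UTR share was 25% in control, from PXN, ZYX and TNS3, beside 9.87% of all control positions, and 10.5% after TGF-β1 beside 9.96% of all.

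Of the 28 control positions 6 (21.4%) recurred after TGF-β1, near the 24.5% of all control positions that did. They make up 15.8% of the 38 TGF-β1 positions, where 16.9% of all TGF-β1 positions were also in control. Of the 6, 4 were higher after TGF-β1 and 2 lower, where 78.4% of all 1985 shared positions were higher. In TLN1, position 35724299 had 2.01% and 2.65%, position 35724911 had 2.32% and 3.89%, and position 35716415 had 7.48% and 5.55%. The PXN 5'UTR position had 2.62% and 3.65%, that of ZYX 2.96% and 3.27%, and the PARVA coding position 3.95% and 2.66%. The highest of the 6 in control was thus lower after TGF-β1.

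**Figure D4:**
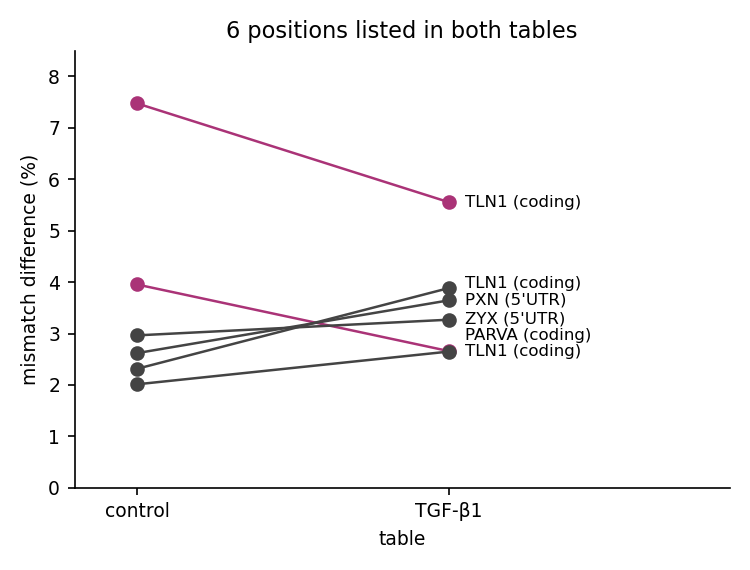
Lines join the mismatch difference in percent (y axis) in control and after TGF-β1 (x axis) at each of the 6 adaptor positions listed in both tables. The 4 grey lines go up, and the 2 purple lines, TLN1 from 7.48% and PARVA from 3.95%, go down.

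The median difference at these 6 positions was 0.47 percentage points, beside 1.70 over all shared positions counted for each gene. A difference of at least 1.5-fold upward was present at 1 of them, TLN1 position 35724911 (1.68-fold), where 49.8% of all shared positions had one, and one of that size downward at 0, where 5.29% had. The TLN1 position had authors' p-values of 7.3e-05 and 4.95e-16. With 6 positions in 4 genes and no replicate, these values describe the tables and cannot be extended to the cells.

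The direction of the change in count went with the length of the genes. The 4 genes with more positions span from 7.17 kb (ILK) to 39.9 kb (BCAR1), and the 5 with fewer span from 55.3 kb (PXN) to 307.4 kb (TNS3). With a limit of 50 kb, set after these values were seen and placed in the gap between the adaptors with more and those with fewer, the shorter adaptors had 10 control and 31 TGF-β1 positions, and the longer ones 18 and 7. The limit thus fixes how the adaptors divide, and their counts on either side of it are a description. Over all listed genes, 59.3% of the 4122 genes under 50 kb had a higher count with TGF-β1 and 26.7% a lower one, and of the 1990 longer genes 34.3% had a higher count and 53.1% a lower one. The part of span in the change of any one gene was not tested.

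**Figure D5:**
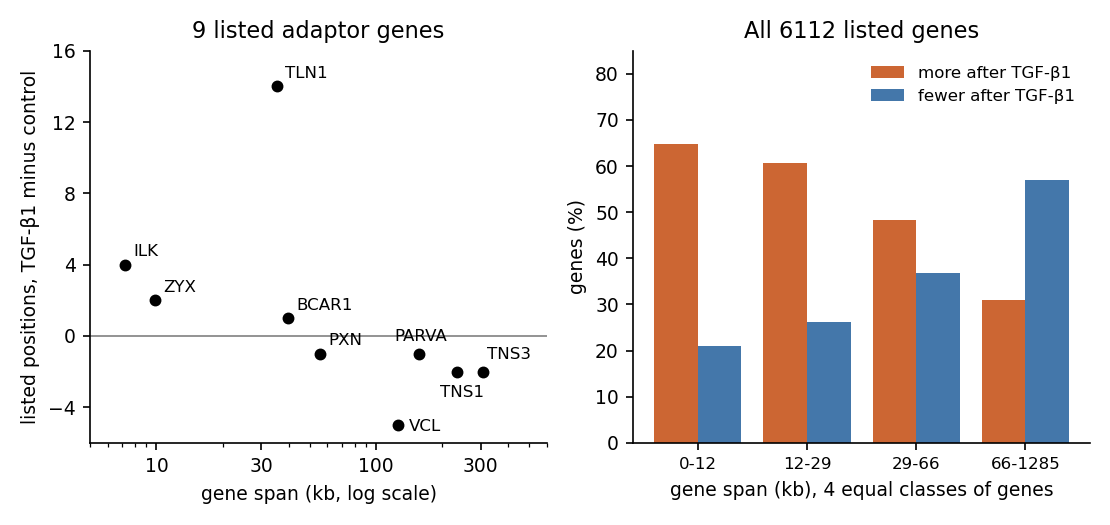
The left panel plots the change in listed positions, TGF-β1 minus control (y axis), against gene span in kb (x axis, log scale) for the 9 listed adaptor genes, and the right panel gives the percentage of all 6112 listed genes with more or fewer positions in each of 4 equal classes of span. Adaptors up to 39.9 kb lie above 0 and longer ones below it, and over all genes the share with more goes from 64.7% in the shortest class to 31.0% in the longest.

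Other genes of focal adhesions were read from 3 lists, to be set beside all listed genes, of which 51.2% had more positions after TGF-β1 and 35.3% fewer, at a ratio of 1.46. Of 18 partners of talin, kindlin and the ILK complex, 7 were listed, with more positions after TGF-β1 in 3, fewer in 2 and equal numbers in 2 (11 and 12 positions, ratio 1.09). KANK2, which binds talin, had 5 and 5, the parvin PARVB 2 and 2, RSU1, which binds PINCH, 1 and 2, and TLN2, the second talin, 2 and 1. The kindlin genes FERMT1, FERMT2 and FERMT3 had no listed position, while TLN2, unlike TLN1, had 1 fewer after TGF-β1. The list held 3 shared positions, all with the higher value after TGF-β1, by a median of 5.27 points, beside 78.4% higher and a median of 1.70 points over all.

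Of 32 LIM-domain and VASP-family adhesion genes, 24 were listed, with more positions in 13, fewer in 7 and equal numbers in 4 (26 and 42 positions, ratio 1.62). The share with more, 54.2%, was near that of all genes. VASP, an actin filament elongation factor that zyxin binds, had 1 and 7, PDLIM7 1 and 5, the vinculin-binding adaptor SORBS3 (vinexin) 3 and 6, and ENAH, a relative of VASP, 2 and 3. The list held 4 shared positions, each of them with the higher value after TGF-β1, in SORBS3, ENAH and CRIP2, by a median of 2.20 points, beside the same 78.4% and 1.70 points over all.

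Of 40 partners of focal adhesion kinase, SRC, p130Cas and CRK, 19 were listed, with more positions in 5, fewer in 12 and equal numbers in 2 (49 and 45 positions, ratio 0.918). The share with more was 26.3% and that with fewer 63.2%, beside 51.2% and 35.3% of all genes, with no test of the difference. Of the 19 genes, 16 span 50 kb or more, and of all listed genes of that span 34.3% had more and 53.1% fewer. GIT1, which binds paxillin, had 3 and 9, the exchange factor RAPGEF1 4 and 7, the kinase ABL1 3 and 7 and the adaptor GRB2 6 and 5. This list had 9 shared positions, of which 6 had the higher value after TGF-β1, where 78.4% of all were higher, and their median difference was 1.11 points. In the 3 lists together, the 17 listed genes under 50 kb had more positions in 10 and fewer in 2 (26 and 52 positions), and the 33 longer genes had more in 11 and fewer in 19 (60 and 47 positions). Among the longer genes the surplus with fewer came from the list of kinase partners, with more in 3 and fewer in 12, while the LIM-domain list had 6 and 6 and the talin list 2 and 1.

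Of 11 stellate cell markers 5 were listed (PDGFRB, ACTA2, COL1A1, VIM and TAGLN), and COL1A2, DES, LRAT, RGS5, LUM and DCN were not. The listed ones had 9 control and 29 TGF-β1 positions, beside 8298 and 12076 (ratio 1.46) over all genes. No hepatocyte (6) or endothelial (5) marker had a listed position, 1 of 5 macrophage markers (CD68) had 3 and 2, and 1 of 4 cholangiocyte markers (SOX9) had 1 and 0. A gene without a listed position may still be expressed.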

How the data were processed

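The submitters' processing notes name build hg38, STAR 2.7.6a, fastp 0.23.1 and featureCounts without saying what each did. How positions were called and filtered, and how the 2 libraries of a group were joined, is not given in the sources used here. In the 1 table that the authors deposited for each group, the difference column holds a fraction and each position a p-value (adjusted or not is not stated). Lines were merged to 1 per position and gene. Where transcripts differed, coding sequence was kept first, then 5'UTR, 3'UTR and noncoding exon. Shared positions have the same chromosome, base and strand in both tables. The start column counts from 0, and gene starts count from 1 (2860 of 5872 genes equal RefSeq's start as written, 58 after adding 1).

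The members and the lists were chosen with earlier results of these data known. All 10 members were named, with each shared position, the highest position per table, and each one where a member had 5 or fewer, and the 4 genes with most positions of each list. Further TLN1 and VCL positions were chosen after their values were seen. Depth is unknown, so no interval for a position can be given. Counting was tested on simulated tables. Python 3.11.15 and pandas 2.3.3 were used. Alternatives were stricter p-values or levels, a shortened TGF-β1 list, left-out p-values of 0, coding positions, positions of 1 gene, joined neighbours and TLN1 left out.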

Additional observations from a re-analysis of the deposited data

How the results depend on the processing

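The ratio of listed positions over the 10 genes, 1.36, turned to 0.786 (28 and 22 positions) when the TGF-β1 list was shortened to the control list's length by lowest p, and to 0.800 without TLN1. Shortening makes the 2 whole lists equal in length, so 0.786 does not stand beside the 1.46 of all genes. Under the other 6 alternatives the ratio of the 10 genes stayed between 1.10 and 1.69. At p under 0.001 the 10 genes had 13 and 22 positions, beside 4596 and 8087 over all positions. Levels under 5% made up 64.3% of control and 71.1% of TGF-β1 adaptor positions, beside 61.1% and 53.2% of all positions. In the shortened list TLN1 still had 13 positions against 8. The share of shared positions that were higher, 66.7%, was 100% of 2 at p under 0.001, 100% of 4 with the shortened list and 0% of 1 at 5% or more. The median difference was -1.92 points at 5% or more, from 1 position, and -0.33 points over the 4 coding positions. The genes with more positions numbered 3 or 4, and the control positions listed again ran from 10% to 28.6% of those tested, under all 8 alternatives of each. Under the alternatives run per gene, none of the 10 changed direction, but PXN, BCAR1, ZYX, PARVA and TNS3 each had equal numbers in at least 1. Positions annotated to 1 gene gave the same values, since no adaptor position had a second gene. No paired analysis was possible because the tables hold 1 value per group, and for the same reason no library could be left out.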
